A study of Mus musculus with 6 samples.

Results

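The genes described here are 10 markers of adipose tissue macrophages, *Adgre1*, *Cd68*, *Csf1r*, *Lyz2*, *Mrc1*, *Cd163*, *Lyve1*, *Trem2*, *Itgax* and *Ccl2*. They were chosen by symbol as pan-macrophage, resident, lipid-associated and inflammatory markers, and each symbol matched 1 of the 55573 genes listed in both the mutant and the Wt table. RNA-seq was performed on inguinal fat, the subcutaneous depot of the groin, of 3 mutant and 3 Wt male mice that were 3 months old, and each mouse gave 1 library. The mutant mice carried the substitutions K283Q and K288R in the thyroid hormone receptor THRA, which were made to prevent attachment of the small protein SUMO at a site of the receptor. The mutation was global and homozygous, so that it was present in the macrophages as well as in the adipocytes. Wt mice carried the unaltered receptor, both genotypes were of the C57BL/6NTac strain and on a regular diet, and the labels name no treatment.

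Macrophages of adipose tissue clear dying adipocytes, take up lipid and release cytokines. Resident macrophages lie along vessels and carry scavenger and lectin receptors such as CD163, MRC1 and LYVE1, which bind haemoglobin complexes, mannose glycans and hyaluronan. Lipid-associated macrophages surround dying adipocytes in obese fat and depend on the lipid receptor TREM2. The integrin CD11c, encoded by *Itgax*, and the chemokine CCL2, which draws monocytes from the blood, are used as marks of inflamed fat.

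The mice had 19607423 to 24228381 reads on genes. Values are reads scaled to CPM with a further factor for each mouse, here called normalized CPM, and 3 reads correspond to 0.126 to 0.157 in them, a floor that covers counting error only. The genotypes were compared with limma on log2(value + 0.5) over 16868 genes, and 1368 genes (8.11%) passed the FDR of 0.05, of which 928 (5.50%) were higher and 440 (2.61%) lower in mutant mice. With scaling by library size alone the split was 1019 higher and 265 lower, and with GC correction 857 and 86. *Thra* itself had 147, 128 and 117 normalized CPM in the Wt animals and 169.8, 139.9 and 137 in the mutants (adjusted p = 0.404, limma). Over 263 bases its exons overlap those of the opposite-strand gene *Nr1d1*, which had 1.99 times its mean value, and the reads there cannot be assigned to either. Mutant mouse 1 stood apart in its lymphocyte markers. The summed level of 6 B cell markers was 3.30 normalized CPM in it and 382 to 822 in the other mice.

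None of the 10 macrophage genes passed the FDR of 0.05 with limma, against 8.11% of all genes tested. edgeR's quasi-likelihood test also called 0 of them (6.92% of all genes), and the Wald test of DESeq2 called 2 (12.6% of all genes), *Cd163* higher and *Cd68* lower in mutant mice. At an unadjusted p under 0.05 in limma, 2 of the 10 passed, the same 2 genes, beside 24.2% of all genes. The values of the genotypes did not overlap for 3 of the 10 genes, *Cd163*, *Mrc1* and *Cd68*, beside 30.6% of all genes, and the last 2 shares were thus close to those of genes in general. All 3 resident markers had a higher mean in mutant mice and the 7 other genes a lower one, although the sign changed for *Adgre1* with edgeR and for *Adgre1* and *Trem2* with GC correction. The median log2 difference was -0.10 over the 10 genes and -0.05 over all genes tested. In RNA from whole tissue, fewer cells of a type and less RNA per cell cannot be told apart.

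**Figure D1:**
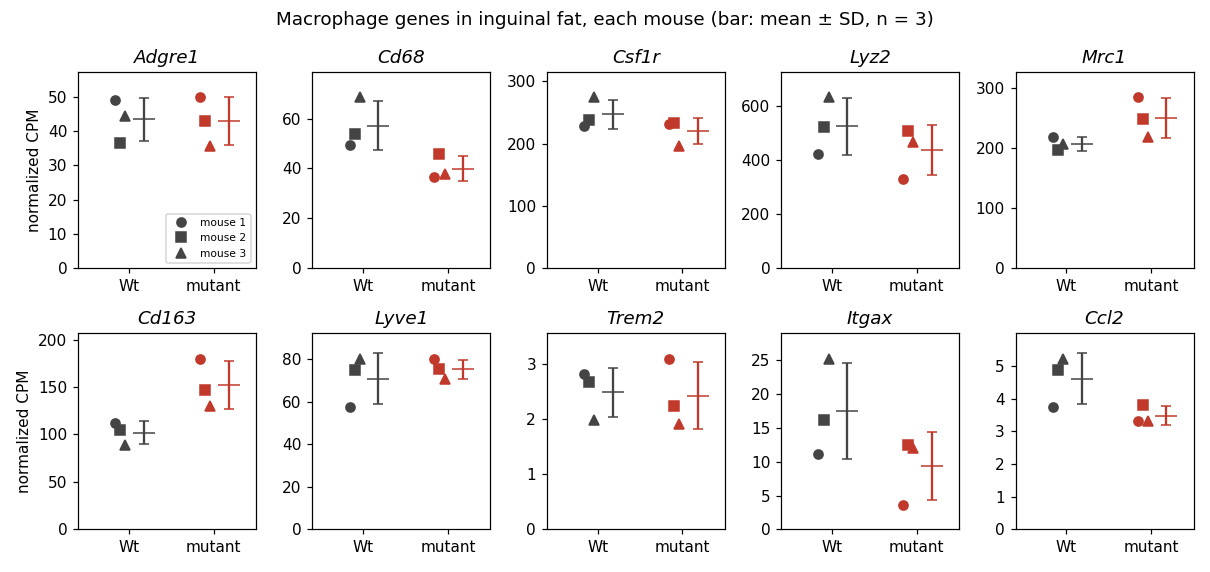
Normalized CPM of the 10 macrophage genes in each mouse, with a separate linear axis from 0 for each gene, circles, squares and triangles for mice 1, 2 and 3, and bars for the mean ± SD of 3 mice. The mutant mice lie above all Wt mice for *Cd163* and *Mrc1* and below them for *Cd68*, and the genotypes overlap for the other 7 genes.

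The promoters of the 3 genes whose genotypes did not overlap are shown with that of *C1qc*, which was lower in mutant mice. Each is 300 bases of RefSeq on GRCm38.p6, from 250 bases before to 50 after the gene's start, in the 5′ to 3′ direction of the gene. Capitals mark GAGGAA, the core letters bound by PU.1, the transcription factor of the macrophage lineage, and AGGTCA, the half-site of nuclear receptors such as THRA, each searched on both strands (TTCCTC and TGACCT on the other strand). The regions are chr6:124304401-124304700 on the plus strand for *Cd163*, chr2:14229164-14229463 on the plus strand for *Mrc1*, chr11:69666121-69666420 on the minus strand for *Cd68* and chr4:136892865-136893164 on the minus strand for *C1qc*.
Cd163: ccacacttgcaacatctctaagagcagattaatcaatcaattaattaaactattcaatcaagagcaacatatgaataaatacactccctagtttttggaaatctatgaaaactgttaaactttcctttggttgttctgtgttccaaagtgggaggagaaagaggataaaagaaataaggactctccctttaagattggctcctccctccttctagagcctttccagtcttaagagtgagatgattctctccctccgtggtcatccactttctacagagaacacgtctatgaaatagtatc
Mrc1: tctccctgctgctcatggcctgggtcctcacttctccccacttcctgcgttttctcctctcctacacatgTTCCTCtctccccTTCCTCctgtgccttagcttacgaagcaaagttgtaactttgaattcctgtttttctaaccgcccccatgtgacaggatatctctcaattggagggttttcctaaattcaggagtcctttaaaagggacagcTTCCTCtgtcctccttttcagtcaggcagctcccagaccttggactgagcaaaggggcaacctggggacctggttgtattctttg
Cd68: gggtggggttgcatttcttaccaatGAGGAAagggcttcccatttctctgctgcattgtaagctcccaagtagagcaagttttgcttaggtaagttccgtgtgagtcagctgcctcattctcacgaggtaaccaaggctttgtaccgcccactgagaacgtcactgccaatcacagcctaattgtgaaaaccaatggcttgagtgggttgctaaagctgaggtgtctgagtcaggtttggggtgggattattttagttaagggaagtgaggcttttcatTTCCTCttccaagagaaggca
C1qc: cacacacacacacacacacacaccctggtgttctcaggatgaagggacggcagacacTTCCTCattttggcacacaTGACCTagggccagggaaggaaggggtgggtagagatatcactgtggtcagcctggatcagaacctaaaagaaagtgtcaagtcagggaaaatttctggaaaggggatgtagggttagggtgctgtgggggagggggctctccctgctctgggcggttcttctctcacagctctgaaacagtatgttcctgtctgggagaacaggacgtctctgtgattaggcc

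The PU.1 core was found 3 times before *Mrc1*, at -180, -167 and -35 from the start, and 2 times at *Cd68*, at -225 and 30. *C1qc* held 1 PU.1 core at -193 and 1 half-site at -174. Of the other further genes past the FDR with a promoter listed, *Csf2ra* held 2 PU.1 cores, at -14 and -8, and no half-site. *Fcer1g* held neither motif. Neither motif was found in this window of *Cd163*. A promoter was listed for 6 of the 10 genes, and of these 3 held the PU.1 core (*Cd68*, *Mrc1* and *Trem2*) and 1 the half-site (*Trem2*, at -68). Among all 32851 promoters listed, 28.3% held the PU.1 core and 16.3% the half-site, and a match of letters is a description and not a binding site.

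*Cd163* showed the difference nearest to the threshold among the 10 genes. It encodes the scavenger receptor for haptoglobin and haemoglobin complexes and lies on chromosome 6 of GRCm38 from 124304656 to 124330527 (ENSMUSG00000008845). *Cd163* had 112, 105 and 88.8 normalized CPM in Wt animals 1, 2 and 3 and 179.8, 147 and 131 in mutants 1, 2 and 3, the order in which values of single mice are given throughout. Each mutant mouse was above each Wt mouse, and the highest was mutant mouse 1. The Wt mean was 102 ± 12 (SD, n = 3) and the mutant mean 152 ± 25.2 (SD, n = 3), a ratio of 1.49. On the log2 scale mutant mice were higher by 0.57 (standard error 0.15, adjusted p = 0.0686, limma), with a 95% confidence interval for this gene alone of 0.22 to 0.92. Without mutant mouse 1 it was 0.44 (adjusted p = 0.112, limma).

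*Mrc1* encodes the mannose receptor CD206 and lies on chromosome 2 from 14229392 to 14332057 (ENSMUSG00000026712). *Mrc1* had 218, 197 and 207 normalized CPM in the Wt animals and 285, 249 and 219 in the mutants. Mutant mouse 3 and Wt mouse 1 were nearly level, so the genotypes were only just separate. The means were 207 ± 10.9 (SD, n = 3) and 251 ± 33.0 (SD, n = 3), with a log2 difference of 0.27 (standard error 0.12, adjusted p = 0.222, limma). Without mutant mouse 1 the difference was 0.17.

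*Lyve1* encodes a hyaluronan receptor of perivascular macrophages and of lymphatic vessels and lies on chromosome 7 from 110850607 to 110863239 (ENSMUSG00000030787). *Lyve1* had 57.4, 74.6 and 80.1 normalized CPM in the Wt animals and 79.8, 75.1 and 70.7 in the mutants. The mutant mice lay within the range of the Wt mice. This gave a log2 difference of 0.10 (standard error 0.14, adjusted p = 0.669, limma), and its 95% confidence interval of -0.23 to 0.43 held folds of 0.855 to 1.35. Of 6 other lymphatic markers 5 were tested and none passed the FDR with limma. Of the 5, 1 had an unadjusted p under 0.05 (20%, beside 24.2% of all genes). The most abundant of them, *Flt4*, the lymphatic growth factor receptor, had a Wt mean of 23.7 ± 4.57 (SD, n = 3) and a mutant mean of 20.1 ± 3.22 (SD, n = 3). *Pdpn*, podoplanin, went the other way without overlap, from 17.6 ± 0.594 (SD, n = 3) to 24.1 ± 4.18 (SD, n = 3), with an adjusted p of 0.131 in limma.

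Of the 4 pan-macrophage markers, *Cd68*, which encodes a glycoprotein of lysosomes, was below the Wt range in every mutant. It lies on chromosome 11 from 69664213 to 69666153 (ENSMUSG00000018774). *Cd68* had 49.5, 53.7 and 68.5 normalized CPM in the Wt animals and 36.5, 45.7 and 37.6 in the mutants. The means were 57.2 ± 9.98 (SD, n = 3) and 39.9 ± 5.0 (SD, n = 3), a ratio of 0.698. The difference on the log2 scale was -0.51 (standard error 0.15, adjusted p = 0.0988, limma), with a 95% confidence interval for this gene alone of -0.87 to -0.15. Without mutant mouse 1 it was -0.45 (adjusted p = 0.194, limma).

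*Adgre1* encodes F4/80, the surface receptor by which mouse macrophages are usually recognized, and lies on chromosome 17 from 57358691 to 57483527 (ENSMUSG00000004730). *Adgre1* had 49.1, 36.7 and 44.5 normalized CPM in the Wt animals and 49.8, 43.0 and 35.8 in the mutants. The genotypes covered almost the same range, at 43.4 ± 6.27 (SD, n = 3) and 42.9 ± 7.04 (SD, n = 3). Their log2 difference was -0.02 (standard error 0.16, adjusted p = 0.942, limma), and its sign changed with edgeR (0.0084) and with GC correction (0.03). The 95% confidence interval of -0.40 to 0.36 held folds of 0.757 to 1.28.

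*Csf1r* (ENSMUSG00000024621) encodes the receptor for CSF1 and IL34, on which macrophages depend for survival. *Csf1r* had 229, 238 and 274 normalized CPM in the Wt animals and 232, 233 and 197 in the mutants. The genotypes overlapped, and mutant mouse 3 was below all other mice. This was a log2 difference of -0.16 (standard error 0.11, adjusted p = 0.413, limma), and with GC correction it was -0.03. *Csf1r* shares 873 exonic bases with *Hmgxb3* on the other strand, a gene at 0.141 times its mean value, and without strand information their reads cannot be told apart there.

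*Lyz2* encodes lysozyme M of macrophages and neutrophils and lies on chromosome 10 from 117277331 to 117282321 (ENSMUSG00000069516). *Lyz2* had 422, 522 and 631 normalized CPM in the Wt animals and 332, 508 and 467 in the mutants. Mutant mouse 1 was the lowest, and the 2 other mutant mice lay within the Wt range. The log2 difference was -0.27 (standard error 0.22, adjusted p = 0.464, limma), and without mutant mouse 1 it was -0.09. The adjacent copy *Lyz1* has a near-identical sequence, so the division of reads between them is uncertain, and *Lyz1* had 45.3, 61.1 and 73.0 normalized CPM in the Wt animals and 24.7, 60.9 and 60.1 in the mutants. The 7 neutrophil markers summed to only 7.46 to 19.8 normalized CPM in Wt mice and 7.49 to 12.5 in mutant mice. The most abundant of them, *Csf3r*, the receptor for G-CSF, averaged 6.59 ± 2.06 (SD, n = 3) in the former and 3.79 ± 0.493 (SD, n = 3) in the latter (adjusted p = 0.137, limma). The neutrophil markers were not alike, as 3 of the 5 tested were lower and 2 higher with the mutation. *S100a8* differed most on the log2 scale and was higher, by 0.86 (adjusted p = 0.218, limma), although the genotypes overlapped.

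The 3 lipid-associated and inflammatory markers were the least abundant of the 10 genes, with 41 to 67 reads for *Trem2*, 63 to 124 for *Ccl2* and 69 to 600 for *Itgax*. Counting error at the lowest of these reads was 15.6%, 12.6% and 12% of the value. *Trem2* lies on chromosome 17 from 48346401 to 48354147 (ENSMUSG00000023992). It had 2.81, 2.67 and 1.98 normalized CPM in the Wt animals and 3.09, 2.24 and 1.92 in the mutants. The genotypes overlapped over almost the whole range. The log2 difference was -0.04 (standard error 0.21, adjusted p = 0.913, limma), its sign changed with GC correction (0.05), and the 95% confidence interval held folds of 0.684 to 1.38.

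*Itgax* had the largest difference on the log2 scale and the widest spread relative to the mean of the 10 genes. It encodes the integrin CD11c of dendritic cells and of inflammatory macrophages and lies on chromosome 7 from 128129547 to 128150657 (ENSMUSG00000030789). *Itgax* had 11.1, 16.2 and 25.2 normalized CPM in the Wt animals and 3.62, 12.5 and 12 in the mutants. Mutant mouse 1 was below all other mice, and mutant mice 2 and 3 were between the lowest and the middle Wt mouse. The log2 difference was -0.97 (standard error 0.51, adjusted p = 0.301, limma), and without mutant mouse 1 it was -0.42 (standard error 0.31, adjusted p = 0.53, limma). The coefficient of variation between mice was 40.7% in Wt mice and 53.3% in mutant mice, compared to 5.25% and 13.1% for *Mrc1*.

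*Ccl2* lies on chromosome 11 from 82035571 to 82037453 (ENSMUSG00000035385). It had 3.73, 4.86 and 5.22 normalized CPM in the Wt animals and 3.30, 3.81 and 3.32 in the mutants. Mutant mouse 2 was just above Wt mouse 1, and the 2 other mutant mice were below all Wt mice. On the log2 scale the difference was -0.35 (standard error 0.17, adjusted p = 0.257, limma).

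The low *Itgax* of mutant mouse 1 went with low lymphocyte markers in the same library. The 6 T cell markers summed to 8.07 normalized CPM in mutant mouse 1 and to 105 to 426 in the other mice. The most abundant of them, *Cd4*, the co-receptor of helper T cells, had 26.9, 87.0 and 131.5 in the Wt animals and 1.73, 49.9 and 61.0 in the mutants. *Pax5*, a B cell transcription factor, was at 0.891 in mutant mouse 1 and at 106 and 159 in the 2 other mutant mice, and *Ccr7*, the receptor that guides dendritic cells to lymph nodes, at 0.210, 33.3 and 40.0. In Wt mice 1, 2 and 3, *Pax5* was at 82.4, 179.5 and 187, *Ccr7* at 19.4, 56.6 and 80.1, and *Itgax* was likewise lowest in Wt mouse 1 and highest in Wt mouse 3. *Ccr7* was the most abundant of 8 dendritic cell markers, of which 6 were lowest in mutant mouse 1 (75%, beside 29.97% of all genes). Of the others *Siglech* was lowest in Wt mouse 1. *Cd209a* was highest in mutant mouse 1, at 21.1 normalized CPM, and higher in every mutant mouse than in every Wt mouse. Of the 10 macrophage genes 4 were lowest in mutant mouse 1, namely *Cd68*, *Lyz2*, *Itgax* and *Ccl2*, beside 29.97% of all genes tested. Another 4, *Cd163*, *Mrc1*, *Adgre1* and *Trem2*, were highest in it. The inguinal depot encloses a lymph node, and the part of its cells in these values was not tested.

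**Figure D2:**
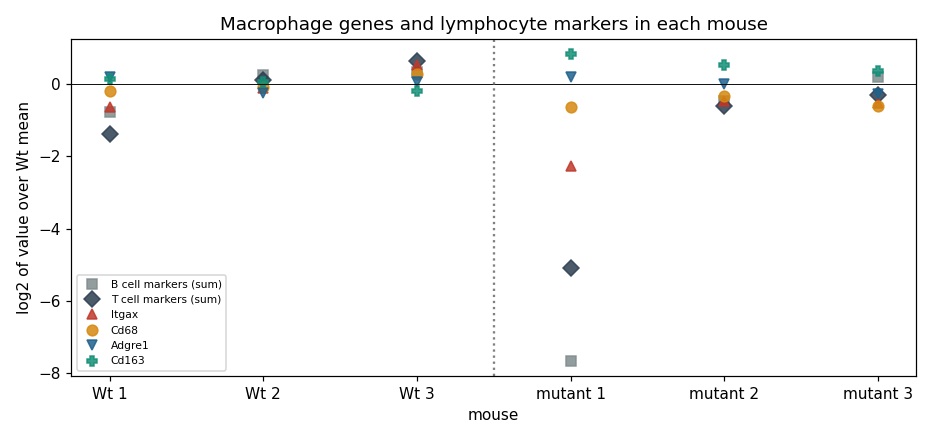
Log2 of each mouse's value over the mean of the 3 Wt mice, for the summed B cell and T cell markers and for *Itgax*, *Cd68*, *Adgre1* and *Cd163*, by mouse, with a dotted line between the genotypes. Mutant mouse 1 has the lowest lymphocyte markers and the lowest *Itgax*, at 3.62 normalized CPM, while its *Cd163*, at 179.8, is the highest.

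Per length of exons, *Lyz2* was the most abundant of the 10 genes, with a Wt mean of 399 ± 79.7 normalized CPM per kb (SD, n = 3) and a mutant mean of 331 ± 70.3 (SD, n = 3). In Wt mice *Cd68* (45.5 per kb), *Csf1r* (42.8), *Mrc1* (32.5), *Lyve1* (24.2), *Cd163* (18.7) and *Adgre1* (13.4) followed. *Ccl2*, *Itgax* and *Trem2* were lowest, at 4.05, 3.65 and 0.503 per kb. The ranges of the mice overlapped between neighbours in this order for *Cd68* and *Csf1r*, for *Lyve1* and *Cd163*, and for *Ccl2* and *Itgax*. In mutant mice the order of the middle genes was different, with *Mrc1* at 39.4 per kb, *Csf1r* at 38.2, *Cd68* at 31.8, *Cd163* at 27.9 and *Lyve1* at 25.8, and each of these overlapped with its neighbour. *Adgre1* (13.2), *Ccl2* (3.06), *Itgax* (1.95) and *Trem2* (0.489) kept their ranks.

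**Figure D3:**
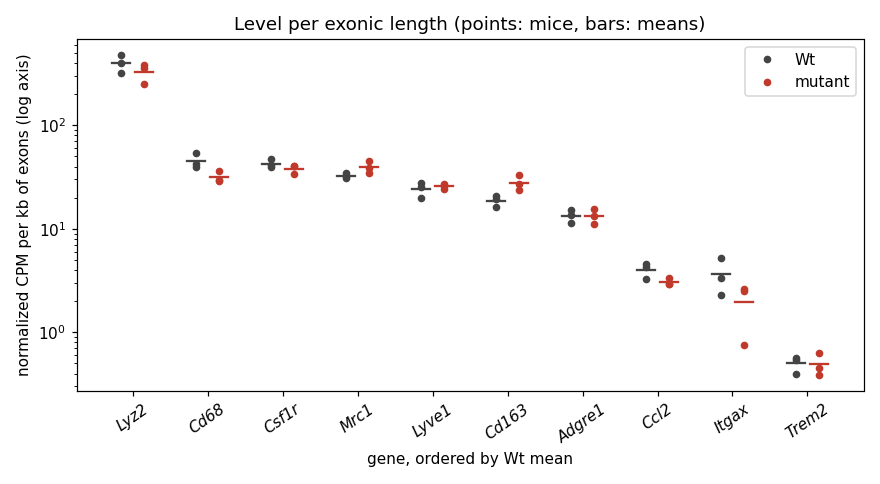
Normalized CPM per kb of exons on a log axis, by gene in the order of the Wt mean, with a point for each mouse and a bar for the mean of 3 mice of each genotype. *Lyz2* lies far above the other genes, at 399 per kb in Wt mice, and *Trem2* far below them, at 0.503.

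Of 74 further macrophage genes in 5 lists, 66 were tested and 4 passed the FDR of 0.05 with limma, all of them lower in mutant mice. This was 6.06% of the genes tested, beside 8.11% of all genes in either direction and 2.61% in the lower direction. The 4 genes were *C1qa*, *C1qc*, *Fcer1g* and *Csf2ra*. The genotypes did not overlap for 19 of the 66 (28.8%, beside 30.6% of all genes). Of these 16 were lower and 3 higher in mutant mice, beside 2647 lower and 2517 higher of all 16868 genes. The median log2 difference of the 66 genes was -0.23, and -0.19 without mutant mouse 1. The 8 genes that were not tested, *Il6*, *Saa3*, *Ccl3*, *Ccl4*, *Cxcl2*, *Csf2*, *Il4* and *Il13*, had too few reads.

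In the pan-macrophage list 3 of 15 genes passed the FDR, all lower in mutant mice (20%, beside 2.61% of all genes). *C1qa* and *C1qc* encode chains of the complement protein C1q, which macrophages make and which tags dying cells for uptake. *C1qa* had 149.5, 150.1 and 168 normalized CPM in the Wt animals and 120.1, 110 and 100.1 in the mutants, a log2 difference of -0.50 (standard error 0.10, adjusted p = 0.0305, limma). *C1qc* was at 145, 135 and 159 and at 114, 102 and 92.4, a difference of -0.51 (standard error 0.11, adjusted p = 0.0387, limma). *Fcer1g*, the signalling chain shared by Fc receptors, had 37.2, 38.3 and 45.2 in the Wt animals and 27.6, 31.1 and 25.5 in the mutants (log2 difference -0.51, adjusted p = 0.0479, limma). For all 3 genes the mutant mice lay below the Wt mice. The exons of *C1qa* and *C1qc* have a GC content of 59.5% and 56.7%, above the median of 50.0% for all genes tested, and with GC correction their differences were -0.24 each and no longer passed (adjusted p = 0.279 and 0.401, limma), nor did that of *Fcer1g* (-0.42, adjusted p = 0.138). *Ctss*, the lysosomal protease cathepsin S and after *C1qa* the most abundant gene of the list, had 106, 159 and 202 normalized CPM in the Wt animals and 53.7, 132 and 135 in the mutants. The log2 difference was -0.61 (adjusted p = 0.401, limma) and -0.17 without mutant mouse 1, in which it was lowest. *C1qb*, the gene of another C1q chain, did not pass (log2 difference -0.35, adjusted p = 0.11, limma), and with GC correction it was -0.08. Of the 15 genes 14 were lower in mutant mice and 1, *Mertk*, was higher, without overlap of the genotypes. Its log2 difference was 0.34 (adjusted p = 0.0994, limma, and 0.0457 with DESeq2).

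None of the 14 genes of the resident list passed the FDR with limma, edgeR or DESeq2, beside 8.11%, 6.92% and 12.6% of all genes. In limma 1 of them, *Stab1*, had an unadjusted p under 0.05 (7.14%, beside 24.2% of all genes). *Stab1* was lower in every mutant mouse than in every Wt mouse (log2 difference -0.33, adjusted p = 0.173, limma). With GC correction its difference was -0.06. The 2 most abundant genes of the list had higher means in mutant mice that did not pass the FDR. *Retnla*, a secreted product of alternatively activated macrophages, had a Wt mean of 324 ± 41.2 (SD, n = 3) and a mutant mean of 408 ± 86.2 (SD, n = 3) (adjusted p = 0.335, limma). *F13a1*, a clotting factor subunit, was at 219.5 ± 19.8 (SD, n = 3) and 274 ± 51.7 (SD, n = 3), with an adjusted p of 0.287 in limma. Without mutant mouse 1 the log2 differences of these genes fell from 0.32 and 0.31 to 0.17 each.

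None of the 15 lipid-associated genes passed the FDR with limma, beside 8.11% of all genes. An unadjusted p under 0.05 was found for 2 of them (13.3%, beside 24.2% of all genes). edgeR called 0 of them (6.92% of all genes) and DESeq2 1 (12.6% of all genes). The gene called was *Mmp12*, a macrophage elastase, named after its values were seen. It was at 4.83 ± 1.48 (SD, n = 3) in Wt and 1.36 ± 0.827 (SD, n = 3) in mutant mice. The abundant lysosomal protease gene *Ctsb* had a Wt mean of 1534 ± 205 (SD, n = 3) normalized CPM and a mutant mean of 1577 ± 283.4 (SD, n = 3). *Apoe*, the apolipoprotein E gene, which adipocytes also express, had 2920, 2919 and 3165 in the Wt animals and 2679, 2579 and 2121 in the mutants (log2 difference -0.29, adjusted p = 0.419, limma), and with GC correction the difference was -0.0284. Neither did any of the 11 inflammatory genes tested pass. Beside the same shares of all genes, 0 of them had an unadjusted p under 0.05 or were called by edgeR or DESeq2. In the latter list *Ccl5*, a chemokine of T cells, had 26.4, 71.5 and 113 in the Wt animals and 2.46, 29.4 and 25.1 in the mutants (log2 difference -2.20, standard error 0.98, adjusted p = 0.232, limma), with its lowest value again in mutant mouse 1. Without that mouse it was -1.12 (adjusted p = 0.322, limma). *Tlr4*, the receptor for bacterial lipopolysaccharide, was at 25.2 ± 1.74 (SD, n = 3) and 28.7 ± 4.02 (SD, n = 3), with an adjusted p of 0.411.

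Of the recruitment and growth factor genes 1 of 11 tested passed the FDR, lower in mutant mice (9.09%, beside 2.61% of all genes). *Csf2ra*, the alpha chain of the receptor for GM-CSF, had 39.6, 41.3 and 47.8 normalized CPM in the Wt animals and 23.9, 29.2 and 26.3 in the mutants, with no overlap. Its log2 difference was -0.69 (standard error 0.11, adjusted p = 0.0167, limma). Without mutant mouse 1 it was -0.62 (adjusted p = 0.0332, limma), and with GC correction -0.42 (adjusted p = 0.0917). *Csf1*, the main growth factor of macrophages, had 100.2, 108 and 111 in the Wt animals and 94.4, 91.1 and 83.9 in the mutants, a log2 difference of -0.24 that did not pass the FDR (adjusted p = 0.132, limma). *Stat6*, which carries the signal of IL4, was at 167 ± 15.2 (SD, n = 3) and 143 ± 10.5 (SD, n = 3), with an adjusted p of 0.247. With GC correction the difference was -0.11 for both genes.

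**Figure D4:**
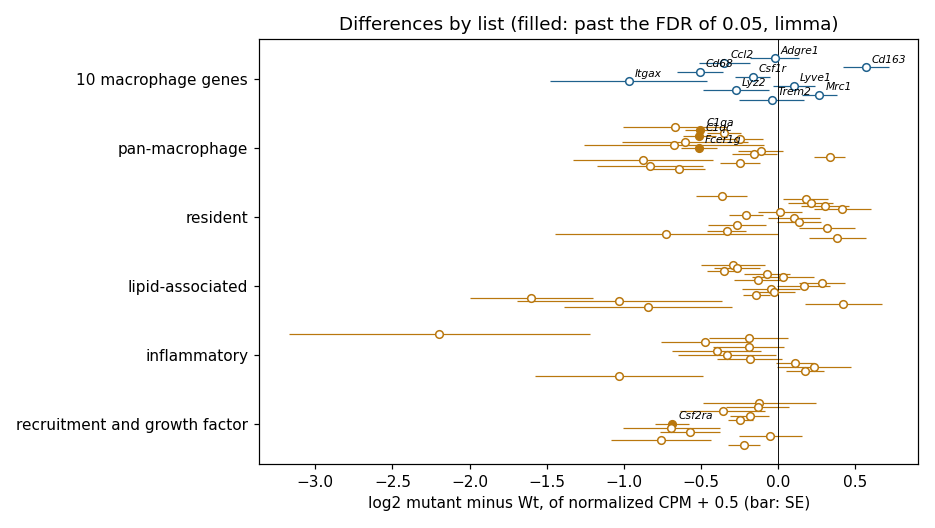
Log2 difference, mutant minus Wt, of normalized CPM + 0.5 for the 10 macrophage genes and the tested genes of the 5 further lists, with bars for the standard error and filled points for genes past the FDR of 0.05 in limma. The 4 filled points, *C1qa*, *C1qc*, *Fcer1g* and *Csf2ra*, lie between -0.69 and -0.50.

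Markers of 10 other cell types were read from the same fit, and 8 of the 62 tested passed the FDR with limma, all of them higher in mutant mice. This was 12.9% of the markers tested, beside 5.50% of all genes in the higher direction. Of these, 7 were among the 8 mesothelial markers and 1, *Myh1*, the gene of a fast myosin, was among the 7 muscle markers. The mesothelial markers summed to 31.6, 4.72 and 7.95 normalized CPM in the Wt animals and to 75.9, 37.8 and 50.7 in the mutants. Most of the sum in Wt mouse 1 came from *Krt19*, a keratin and the 1 mesothelial marker that did not pass the FDR. *Krt19* had 28.5, 2.72 and 2.945 in the Wt animals. Among them *Upk1b*, a uroplakin, was at 6.76, 4.22 and 4.82 in mutant mice and at no more than 0.168 in Wt mice (log2 difference 3.29, adjusted p = 0.00125, limma). *Upk3b*, another uroplakin and the most abundant of them, averaged 18.6 ± 8.34 (SD, n = 3) in the mutants and 0.393 ± 0.609 (SD, n = 3) in the Wt animals. *Msln*, mesothelin, averaged 8.94 ± 3.30 (SD, n = 3) in the mutants and 0.343 ± 0.323 (SD, n = 3) in the Wt animals, and *Wt1*, a transcription factor of the mesothelium, averaged 2.36 ± 0.84 (SD, n = 3) and 0.0302 ± 0.0264 (SD, n = 3). *Myh1* had 31.1, 279 and 166 in the Wt animals and 2405, 1986 and 2385 in the mutants (log2 difference 4.31, adjusted p = 0.0208, limma). The most abundant muscle gene, *Acta1*, the skeletal muscle actin, had a Wt mean of 3289 ± 1166 (SD, n = 3) and a mutant mean of 5253 ± 1133 (SD, n = 3), with an adjusted p of 0.308. The other 8 lists (adipocyte, adipose progenitor, lymphatic, dendritic cell, neutrophil, B cell, T cell and epithelium) held 47 tested markers, of which limma and edgeR called 0 and DESeq2 4, beside 8.11%, 6.92% and 12.6% of all genes. At an unadjusted p under 0.05 in limma 5 were higher and 3 lower in mutant mice (17.0%, beside 24.2% of all genes). Of the epithelial markers the most abundant, *Krt18*, a keratin, had 25.5 normalized CPM in Wt mouse 1 and 0.853 to 2.90 in the other mice. The keratin genes *Krt5* and *Krt14* were instead highest in mutant mouse 2, at 13.8 and 4.62, with 7.08 and 3.98 in Wt mouse 1. *Cd163* and the summed mesothelial and muscle markers were each higher in every mutant mouse than in every Wt mouse. Mutant mouse 1 was the highest in all of them, with *Cd163* at 179.8 and the mesothelial markers at 75.9. Mutant mouse 3 had more mesothelial signal than mutant mouse 2 (50.7 against 37.8) and more muscle signal, but less *Cd163* (130.5 against 146.7). So few mice cannot show whether these levels run together. The part of mesothelial and muscle cells in *Cd163* was not tested and cannot be told apart from genotype. The adipocyte marker *Adipoq* had a Wt mean of 1785 ± 376 (SD, n = 3) and a mutant mean of 1697 ± 410 (SD, n = 3), and the adipose progenitor marker *Pi16* had means of 281 ± 25.9 (SD, n = 3) and 372 ± 81.6 (SD, n = 3). Neither passed the FDR (adjusted p = 0.861 and 0.235, limma). Of the 6 adipose progenitor markers 4 were higher and 2 lower in mutant mice. The largest difference was that of *Icam1*, which was lower (log2 difference -0.92, adjusted p = 0.227, limma). The adipocyte genes were not alike. *Lep*, the leptin gene, had a log2 difference of 0.67 (adjusted p = 0.172, limma, and 0.0316 with DESeq2), and *Pnpla2*, the gene of a triglyceride lipase, one of -0.49 without overlap of the genotypes (adjusted p = 0.246, limma).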

How the data were processed

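Inguinal fat RNA-seq of 6 male mice, 3 mutant and 3 Wt, was analysed, with genotype and mouse number from the labels. In 1 table per genotype, the authors deposited for every gene a normalized signal, which is CPM times a factor of the mouse. The submitters' processing notes name Bowtie2 2.1.0, RSEM 1.2.15, edgeR and mm10, without their roles. The use of strand is not given in the sources used here. Every value (100% within 0.1 reads) was a whole number of reads times 1 step per mouse, so reads were recovered. Coordinates, exonic lengths and GC content are those of GENCODE M21 on GRCm38, in which 55480 of the 55573 identifiers were found, and promoters are from RefSeq. Replicates differed by more than sampling noise (19.3 to 64.9 times, by chi-square over its degrees of freedom) and were all kept. Each library is labelled as a separate mouse.

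The genotypes were compared by limma 3.58.1 in R 4.3.3 on log2(value + 0.5) with eBayes trend. This scale understates changes of low values. The 16868 genes kept by filterByExpr of edgeR 4.0.16 were tested, and Benjamini-Hochberg adjustment ran over these genes. With 3 mice a group, the smallest two-sided p of an exact permutation test is 0.1. The steps were tested on simulated data. Alternatives were edgeR's quasi-likelihood test and DESeq2 1.42.0 on recovered reads, other scalings, filters, pseudocounts and FDR, GC correction, a replicate block and the omission of each mouse. Removing genes whose exons overlap an opposite-strand gene of at least 10 times their level was chosen after seeing the data. The members and lists were chosen with earlier results of these data known. The genes named are the 10 members, *Thra*, and of each further list those past the FDR (at most 5) and the 2 most abundant, and of each list of another cell type those past the FDR (at most 3) and the most abundant. *Lyz1*, *Hmgxb3*, *Nr1d1*, *Mmp12*, *Pdpn*, *Lep*, *Pnpla2*, *Krt19* and the 8 untested genes were named after their values were seen. The same holds for *C1qb*, *Mertk*, *Stab1*, *S100a8*, *Cd209a*, *Siglech*, *Icam1*, *Krt5* and *Krt14*. One gene of the resident list is not reported here and is left out of the counts of that list. Python 3.11.15, pandas 2.3.3 and Matplotlib 3.10.9 were used for the rest.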

Additional observations from a re-analysis of the deposited data

How the results depend on the processing

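The count of macrophage genes past the FDR was 0 of 10 in limma. It was 2 with DESeq2 (*Cd68* and *Cd163*, beside 12.6% of all genes) and 1 with scaling by library size (*Cd163*, beside 7.61%). At an FDR of 0.1 it was 2 (*Cd68* and *Cd163*, beside 13.4% of all genes). It was 0 with each other scaling, filter or pseudocount and with each mouse left out. Of the further macrophage genes 4 passed in limma, 2 with edgeR, with scaling by library size, without a filter and with at least 10 reads in every mouse, 7 with DESeq2 and at an FDR of 0.1, 1 without the genes overlapped on the other strand, 0 with GC correction and 0 to 3 with 1 mouse left out. The count was 0 without mutant mouse 3, Wt mouse 2 or Wt mouse 3, 1 without mutant mouse 2 or Wt mouse 1 and 3 without mutant mouse 1. Of all genes, 6.92% passed with edgeR, 4.14% without a filter and 4.085% with at least 10 reads in every mouse. The share was 2.19% without the overlapped genes, 5.59% with GC correction and 3.28% to 5.96% with 1 mouse left out. *Csf2ra* passed with edgeR, without the overlapped genes and without mutant mouse 1. Of the 8 markers of other cell types past the FDR, 2 passed with at least 10 reads in every mouse, where 46 were tested, and 7 to 9 with 1 mouse left out.

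When mouse number entered as a replicate block, 3 of the 10 macrophage genes passed, *Cd163* (adjusted p = 0.00754), *Itgax* (0.0414) and *Cd68* (0.0487, limma), with 19 further genes, 21 markers of other cell types and 24.1% of all genes. With GC correction and the block the counts were 2, 11 and 16, beside 17.1% of all genes. The deviations of same-numbered mice correlated at 0.69, 0.06 and 0.56. Mice 1 and 3 of each genotype correlated best with their own number, and mice 2 with mouse 3 of the other genotype. So few values cannot show whether the number stands for a batch, litter or day, and the labels do not say. The sign of the *Adgre1* difference changed with edgeR (0.0084) and with GC correction, with and without the block (0.0331), and that of *Trem2* with GC correction, with and without the block (0.0474). With 1 mouse left out, *Adgre1* lay between -0.14 and 0.10, *Lyve1* between -0.0416 and 0.20, *Trem2* between -0.20 and 0.0835, *Ctsb* between -0.10 and 0.15 and *Adipoq* between -0.26 and 0.0861. Over all genes, 1368 passed in limma, 2118 with DESeq2, 598 with at least 10 reads in every mouse, 2263 at an FDR of 0.1, 4063 with the block, 2881 with the block and GC correction, 344 (177 higher and 167 lower) without the overlapped genes and 554 to 1005 with 1 mouse left out. The cause of these changes was not tested. With 41 to 124 reads, *Trem2* and *Ccl2* are limited by counting error as well as by the number of mice.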

Other observations

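Ratios between macrophage genes within a mouse do not depend on the scaling of that mouse. These pairs were chosen after their values were seen and were not tested. The log2 ratio of *Cd163* to *Adgre1* was 1.19, 1.52 and 0.996 in the Wt animals (mice 1, 2 and 3) and 1.85, 1.77 and 1.87 in the mutants. The mutant mice lay above all Wt mice, at 1.83 ± 0.05 (SD, n = 3). The log2 ratio of *C1qa* to *Adgre1* moved the other way, at 1.61, 2.03 and 1.92 in the Wt animals and 1.27, 1.35 and 1.49 in the mutants. The ratios were not corrected for GC content, which is 59.5% for *C1qa* and 47.6% for *Adgre1*. With GC correction the log2 difference of *C1qa* alone went from -0.50 to -0.24, and that of *Adgre1* was 0.03. The log2 ratio of *Cd163* to *Cd68* averaged 0.84 ± 0.42 (SD, n = 3) for Wt and 1.93 ± 0.33 (SD, n = 3) for mutants, a difference of 1.08, with no overlap.

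The genes of the resident list did not move together. Of its 14 genes 9, such as *F13a1* and *Retnla*, had a higher mean in mutant mice and 5 a lower one. The median of the list was 0.12 on the log2 scale and -0.0064 without mutant mouse 1. Of the 11 recruitment and growth factor genes tested, 8 had their lowest value in mutant mouse 1, compared to 1 of 14 resident genes and 29.97% of all genes.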
